A study of Caenorhabditis elegans with 2 samples.

Results

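The genes of DNA replication and the cell cycle described here were the nuclear protein-coding genes whose symbols begin with mcm, cdk, cyb, cye, cyd, cya, cdc, orc, pole, pola or pri, and 54 of 19973 nuclear protein-coding genes met this rule. The rule reads names only, so it also took in genes that share a prefix but act elsewhere, such as cdc-42, which encodes a small GTPase of cell polarity. Binding was read from chromatin immunoprecipitation and sequencing (ChIP-seq) of GFP-tagged ROW-1, a zinc finger protein, in Caenorhabditis elegans. The strain, OP510 (unc-119(tm4063) III; wgIs510), was a transgenic line with a GFP-FLAG tag at the C-terminus of F37D6.2, the sequence name of row-1, and the tagged protein was recovered with an anti-GFP antibody. Whole hermaphrodites were taken as L4 larvae, 48 h after synchronization from starved L1 larvae, in 2 biological replicates of 1 group. With a single group there was no contrast of conditions and no test, and all comparisons are descriptions beside the same values over all genes.

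Before S phase, the origin recognition complex (ORC) and CDC-6 load the MCM helicase onto DNA, and kinases then fire the loaded origins. DNA polymerase alpha with its primase starts each new strand, and DNA polymerase epsilon extends the leading strand. Cyclin-dependent kinases (CDKs) with their cyclins time these steps and mitosis, and in animals many replication genes are transcribed under the control of E2F factors and Rb-family proteins. In L4 larvae the germ line proliferates, while most somatic divisions are complete.

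The sequences at the summits carry the position of the binding signal and the letters that were searched for known motifs, so those of 7 members are shown. Each holds the summit base of the call at the promoter with 50 bases on either side, on the strand of the gene and 5' to 3', read from the RefSeq sequence of the assembly WBcel235 (ce11). Capitals mark matches on either strand to the motifs searched, whose letters are given with their results further on. The first 4 lie in peaks of the submitters' thresholded list.
cdc-48.1 (chrII:10563510-10563610, minus strand): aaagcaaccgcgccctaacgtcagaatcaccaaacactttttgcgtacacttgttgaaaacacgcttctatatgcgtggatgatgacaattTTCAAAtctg
pola-1 (chrIII:11142220-11142320, plus strand): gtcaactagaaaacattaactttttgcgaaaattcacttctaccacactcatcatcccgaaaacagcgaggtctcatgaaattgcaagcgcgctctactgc
mcm-10 (chrIII:11317323-11317423, plus strand): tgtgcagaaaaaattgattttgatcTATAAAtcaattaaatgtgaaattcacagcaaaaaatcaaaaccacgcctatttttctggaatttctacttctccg
cdk-5 (chrIII:13466379-13466479, minus strand): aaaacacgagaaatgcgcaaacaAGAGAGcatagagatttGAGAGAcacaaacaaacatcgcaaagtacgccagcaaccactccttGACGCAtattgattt
The next 3 lie in weaker calls below that threshold, and the sequence of orc-5 also serves cyb-1, whose promoter window holds the same summit.
mcm-2 (chrII:12006837-12006937, minus strand): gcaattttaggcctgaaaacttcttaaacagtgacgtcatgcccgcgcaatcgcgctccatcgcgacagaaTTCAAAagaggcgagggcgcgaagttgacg
orc-5 (chrIV:10734713-10734813, minus strand): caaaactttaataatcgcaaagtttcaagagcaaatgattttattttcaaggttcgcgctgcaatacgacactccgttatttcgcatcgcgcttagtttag
mcm-7 (chrV:4346961-4347061, plus strand): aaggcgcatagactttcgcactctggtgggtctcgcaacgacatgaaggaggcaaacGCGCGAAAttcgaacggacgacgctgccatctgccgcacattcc
The cdk-5 sequence held 3 of the words that were common at ROW-1 summits. The pola-1 and orc-5 sequences held none of the motifs, which says only that these letters were absent from these windows.

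For each replicate and for both pooled, the submitters deposited a list that mixes peaks with background and feeds a test of reproducibility, the irreproducible discovery rate (IDR), and its entries are named calls here. The thresholded list, named the optimal list, held 1574 peaks on ce11 with signals of 74.8 to 4375, and these were exactly the 1574 strongest of the 30000 pooled calls. Replicate 1 had 28339 calls and replicate 2 had 25405. Signals are the authors' values on an unstated scale, so they rank calls within a list, and read depth is unknown. Neither a control library nor a strain with another tagged protein was examined, so signal that any GFP fusion may yield at these sites was not separated. Peak lists hold no expression, so tissue markers could not be checked, and the cells of the whole animal in which a site was bound are not known.

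Of the 54 genes, 8 had an optimal peak with its summit in the promoter window (14.8%), against 4.58% of all nuclear protein-coding genes. The window began 500 bp before each annotated 5' end and ran to 200 bp past it. They were cdc-48.1, cdc-6, cdk-5, cdk-7, mcm-4, mcm-10, pola-1 and pri-2, and 5 of the 8 encode replication proteins. Of these 5, only mcm-4 held its summit alone. The summits of cdc-6, mcm-10, pola-1 and pri-2 also lay in the promoter window of another protein-coding gene. When any pooled call was counted, 35 genes had one (64.8%), against 29.2% of all genes. Among the 1574 strongest calls of both replicates, 6 genes had a promoter call (11.1%), against 3.36% of all genes. The median pooled rank of the strongest promoter call was 5222 over the 35 genes with one and 8281 over the 5828 of all genes, where rank 1 is the highest signal. Their median pooled signals were 34.4 and 27.1.

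The share of the 54 genes stayed above the share of all genes at each number of pooled calls given here. With the 787 strongest calls 4 genes had a promoter call (7.41%, against 2.31% of all genes). The optimal list of the older assembly ce10 was longer, with 2157 peaks, and the 2157 strongest ce11 pooled calls reached 11 genes (20.4%), against 6.06% of all genes. The genes added were mcm-2, orc-5 and cyb-1, whose calls had counterparts of the same signal in the ce10 optimal list. The orc-5 and cyb-1 calls are the same call, counted for both genes. With 10000 calls the counts were 25 of 54 (46.3%) and 16.2% of all genes. Most of these genes therefore lay below the threshold of the optimal list, and their number depends on where it is set.

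**Figure D1:**
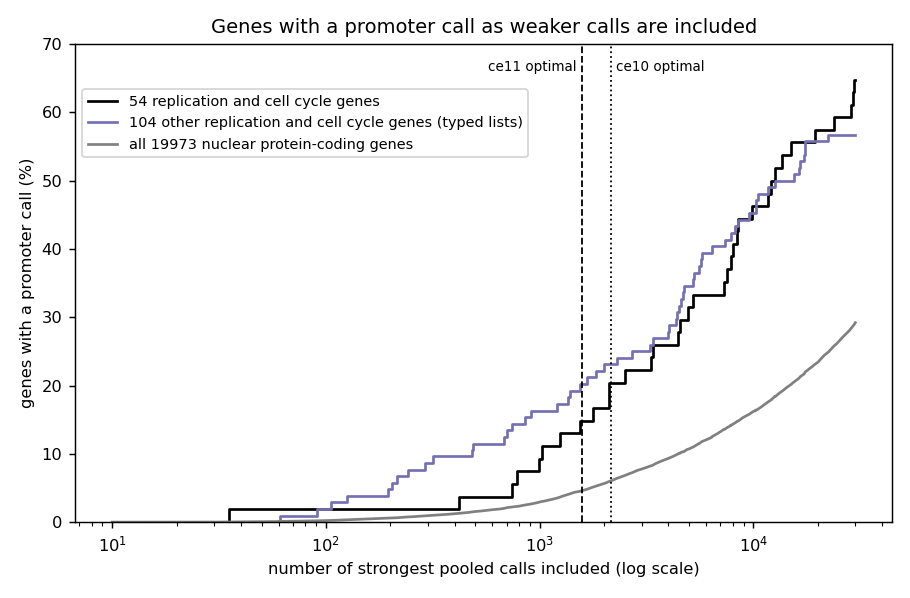
Share of genes with a promoter call (%, vertical axis) as more of the strongest pooled calls are included (log scale, horizontal axis). The black line is the 54 genes, the violet line 104 other replication and cell cycle genes and the grey line all 19973 genes; vertical lines mark 1574 and 2157 calls. The black line ends at 64.8% and the grey line at 29.2%.

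Genes of origin recognition and MCM loading had the largest share with a pooled call among the 7 role groups. The lead was narrow, since 7 of 8 other CDK genes had such a call (87.5%). A promoter call was present in both replicates at 5 of the 12 genes, and at 5 of the 8 other CDK genes. Of 12 such genes, 2 had an optimal peak (16.7%, against 4.58% of all genes) and 11 a pooled call (91.7%, against 29.2%). cdc-6, which encodes the ATPase that joins ORC to load the helicase, had the strongest call of the group, with a signal of 163 at rank 418 in the pooled list, 83.9 in replicate 1 and 72.6 in replicate 2. mcm-4, a helicase subunit gene, had 100 at rank 994, 50.9 in replicate 1 and 49.8 in replicate 2. Both genes were among the strongest 1574 calls in each replicate.

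The other helicase subunit genes spread over the lower ranks. mcm-2 stood closest below the threshold among all 54 genes, with a signal of 69 at rank 1772, 39.4 in replicate 1 and 25.1 in replicate 2, while pri-2 at rank 1540 stood closest above it. mcm-7 had 44 at rank 3391, 21.3 in replicate 1 and 21.6 in replicate 2. mcm-5 had 29 at rank 7289 and 23.6 in replicate 1, with no overlapping call in replicate 2. The remaining subunits were weaker still or unsupported by a replicate. mcm-3 had 26.9 at rank 8377 with no overlapping call in either replicate, and mcm-6 had 14.9 at rank 23871 with 13.3 in replicate 2 only. All 6 subunits of the helicase thus had a pooled promoter call, and the signals ran from 14.9 to 100.

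Among the ORC genes, orc-5 led with a signal of 61.3 at rank 2116, 37.4 in replicate 1 and 23.2 in replicate 2. orc-1 had 27.5 at rank 8073, orc-4 had 26.7 at rank 8502 and orc-3 had 22.4 at rank 12124. These 3 calls overlapped a call of replicate 1, with signals of 22.3, 20.7 and 16.2, and none of replicate 2. orc-2 had no call in its promoter window in any of the 3 lists, and its nearest pooled call, with a signal of 40 at rank 3970, had its summit 242 bp downstream of the 5' end, outside the window.

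Of the 2 genes of origin firing, mcm-10, whose product helps to activate the loaded helicase, had an optimal peak with a signal of 98.4 at rank 1030, 54.6 in replicate 1 and 51.6 in replicate 2. cdc-7, which encodes the kinase that phosphorylates MCM subunits, had no pooled promoter call and a weak call in replicate 1 (10.9, rank 19286).

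Among the polymerase and primase genes, 2 of 6 had an optimal peak (33.3%, against 4.58% of all genes) and 5 a pooled call (83.3%, against 29.2%). pola-1, the gene of the catalytic subunit of DNA polymerase alpha, had a signal of 87.6 at rank 1251, 53.5 in replicate 1 and 31.1 in replicate 2. pri-2, the gene of the large primase subunit, had 76 at rank 1540, 47 in replicate 1 and 26.3 in replicate 2. These 2 genes of the same enzyme complex were the weakest of the 8, and in replicate 2 alone they ranked 1708 and 2320, outside its 1574 strongest calls.

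The partner gene of pri-2, pri-1, encodes the catalytic primase subunit and had only a replicate 1 call (18.4, rank 7280). pole-1, the gene of the catalytic subunit of polymerase epsilon, had 44.6 at rank 3330 and 35.9 in replicate 1, with no overlapping call in replicate 2. In the promoter window of pole-1 85.6% of the 36-base words were unique in the genome, so part of it matches other places. The accessory subunit genes were weaker, with 22.8 at rank 11718 for pole-4 and 12.5 at rank 29742 for pole-2. The pole-4 call overlapped a call of replicate 1 alone, and the pole-2 call a call of replicate 2 alone. Taken as 1 group, the 20 replication genes of these 3 roles had 5 optimal peaks (25%, against 4.58% of all genes). Among these 5, only the mcm-4 summit was not shared with another protein-coding gene. A pooled call was present at 17 of the 20 genes (85%, against 29.2% of all genes). The role groups were made after values were seen.

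**Figure D2:**
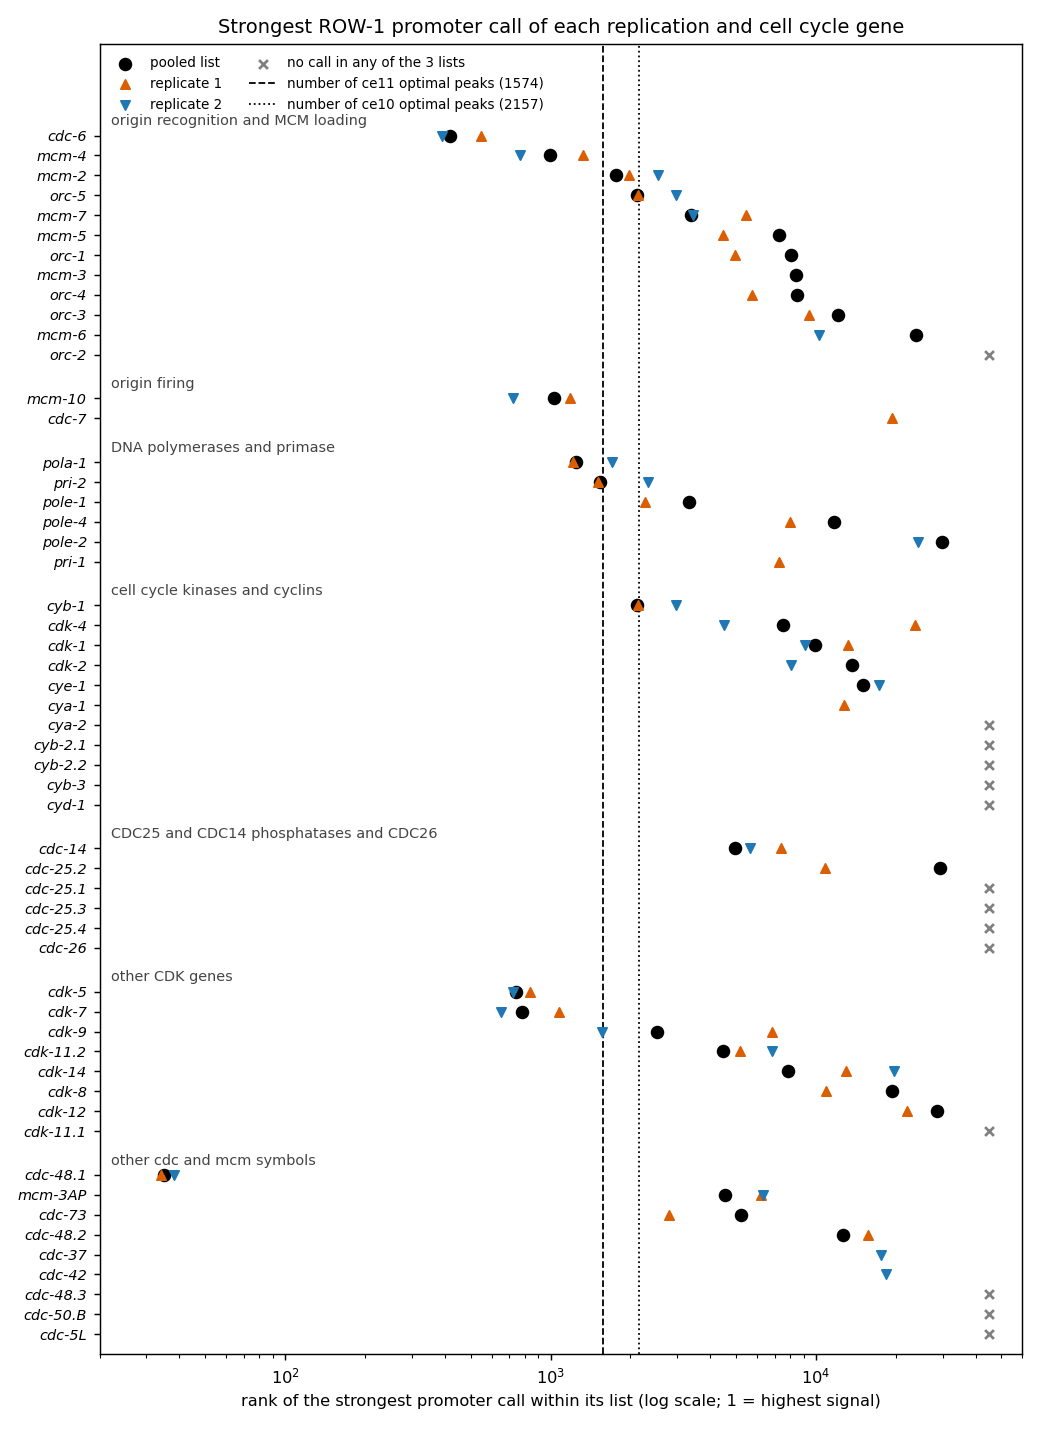
Rank of the strongest promoter call of each of the 54 genes within its list (log scale; 1 is the highest signal), grouped by role. Circles are the pooled list, upward triangles replicate 1, downward triangles replicate 2 and crosses the 14 genes with no call in any of the 3 lists. cdc-48.1 stands apart at rank 35, and 8 circles lie left of the line at 1574 calls.

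The kinases and cyclins that drive the cell cycle had no optimal promoter peak (0 of 11 genes), and 5 had a pooled call (45.5%). With 4.58% of all genes having an optimal promoter peak and 29.2% a pooled call, a count of 0 in a group of this size lies near the background. The strongest was that of cyb-1, a B-type cyclin gene, which is the orc-5 call with a signal of 61.3, since its summit lay 175 bp upstream of orc-5 and 453 bp upstream of cyb-1. cdk-4, the G1 kinase gene, had 28.6 at rank 7503, 9.57 in replicate 1 and 19.1 in replicate 2. cdk-1, the gene of the mitotic kinase, had 24.8 at rank 9885, 13.6 in replicate 1 and 14 in replicate 2. Its pooled summit lay 130 bp upstream of the 5' end, while that of the overlapping replicate 2 call lay 138 bp downstream. All of these calls were far below the lowest optimal signal of 74.8, except that cyb-1 was close to it.

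cdk-2 had a signal of 21 at rank 13676 and cye-1, the gene of its partner cyclin E, had 19.9 at rank 15083. Both summits lay downstream of the 5' end, and the calls overlapped calls of replicate 2 alone, with signals of 14.8 and 10.3. The D-type cyclin gene cyd-1 and the B-type cyclin genes cyb-2.1, cyb-2.2 and cyb-3 had no call in any list, nor had cya-2, and cya-1 had only a replicate 1 call (13.8, rank 12732). Repeated sequence limits what can be read at some of these genes. The share of unique 36-base words in the window was 41.4% at cya-2, 80.5% at cyb-2.1 and 89.2% at cyb-2.2. It was 100% at cyb-3 and cyd-1.

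The phosphatase genes and cdc-26, which encodes a subunit of the anaphase promoting complex, had 0 of 6 genes with an optimal promoter peak, which also lies near the background of 4.58%, and 2 with a pooled call (33.3%, against 29.2% of all genes). cdc-14 had a signal of 35.3 at rank 4971, 18.3 in replicate 1 and 17.3 in replicate 2. Of the CDC25 genes, whose products activate CDKs, cdc-25.2 had 12.7 at rank 29254, near the end of the pooled list, and cdc-25.1, cdc-25.3 and cdc-25.4 had no call. The cdc-25.2 call overlapped no call of either replicate. The absence of a call means no entry in these lists and not an absence of binding, since the lowest pooled signal was 12.4.

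The other CDK genes, several of which act in transcription, had 2 optimal peaks among 8 genes (25%, against 4.58% of all genes) and 7 pooled calls (87.5%, against 29.2%). cdk-5, whose product acts in neurons, had a signal of 119 at rank 741, 67.2 in replicate 1 and 51.5 in replicate 2. cdk-7, which encodes the CDK-activating kinase that is also a subunit of the transcription factor TFIIH, had 115 at rank 783, 58.2 in replicate 1 and 55.1 in replicate 2. cdk-9, the gene of an elongation kinase of RNA polymerase II, had 54 at rank 2515, 19 in replicate 1 and 33 in replicate 2. Its summit lay 201 bp upstream of cdk-9 and 216 bp upstream of hxk-2, a hexokinase gene, so the call cannot be given to either. The replicates placed this call far apart, at rank 6860 and rank 1559, so it was among the strongest 1574 calls of replicate 2 alone. The others were weaker, with 37.5 for cdk-11.2, 28 for cdk-14, 17.1 for the Mediator kinase gene cdk-8 and 13 for cdk-12, and cdk-11.1 had no call. The cdk-8 call overlapped a call of replicate 1 alone, and the cdk-12 call overlapped none of either replicate.

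cdc-48.1 had the strongest call of the 54 genes by a wide margin. It encodes an AAA ATPase that extracts ubiquitinated proteins from complexes, and its signal was 739 at rank 35, 435 in replicate 1 (rank 34) and 305 in replicate 2 (rank 38). Among the 914 genes with an optimal promoter peak it stood at position 5 by signal, and the next of the 54 genes, cdc-6, was at position 254. Its paralogue cdc-48.2 had 21.9 at rank 12680, and cdc-48.3 had no call. In the rest of this group, mcm-3AP had 37.2 at rank 4531, 19.9 in replicate 1 and 16.4 in replicate 2. cdc-73, a gene of the PAF1 complex, had 34.4 at rank 5222 and 31 in replicate 1, with no overlapping call in replicate 2. In the mcm-3AP window 73.3% of the 36-base words were unique in the genome, so part of it matches other places. cdc-37 and cdc-42 had replicate 2 calls alone, and cdc-5L and cdc-50.B had none. Without the genes of the last 2 groups, 5 of 37 genes had an optimal peak (13.5%, against 4.58% of all genes).

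**Figure D3:**
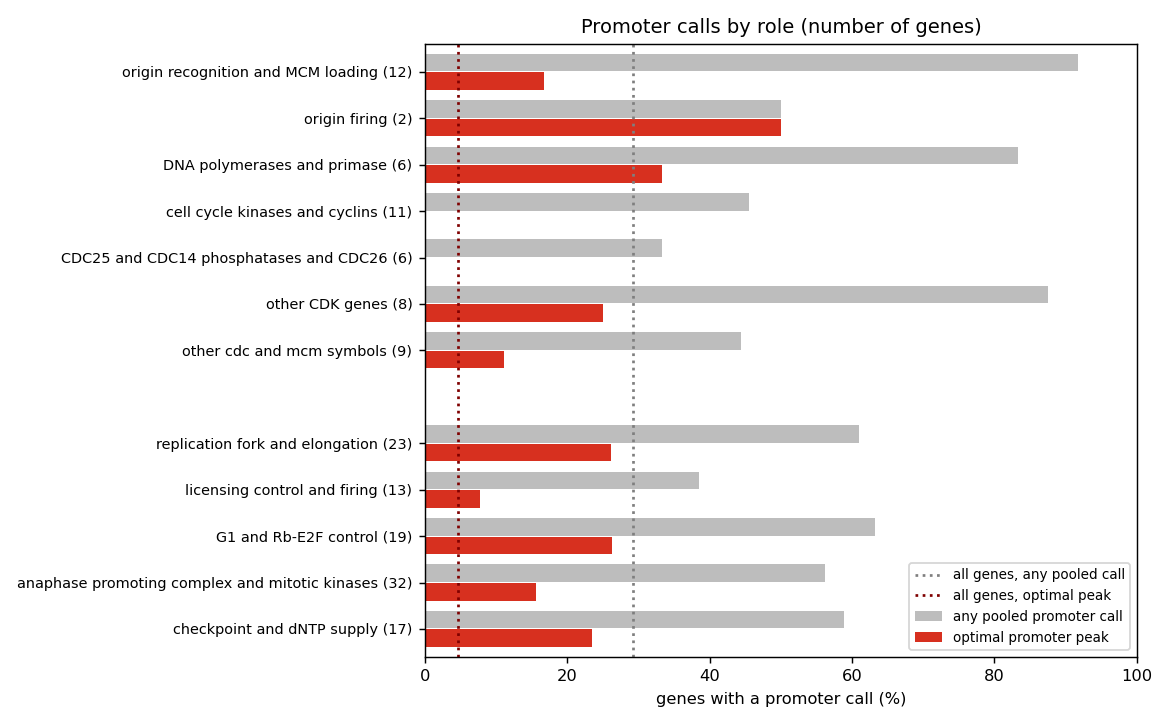
Share of genes in each role with an optimal promoter peak (red bars, %) and with any pooled promoter call (grey bars, %), with the number of genes in brackets. The upper 7 groups are the 54 genes and the lower 5 the other replication and cell cycle genes; dotted lines are the shares of all genes, 4.58% and 29.2%. Cell cycle kinases and cyclins have no red bar, and origin recognition and MCM loading has the longest grey bar at 91.7%.

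All 8 optimal summits lay upstream of the 5' end, at a median distance of 176 bp and between 34 bp (cdk-7) and 272 bp (cdc-6). Over the 914 genes with an optimal promoter peak, 95% had the summit upstream and the median was 200 bp. The cdc-48.1 summit was at 10563560 of chromosome II, in a peak from 10563403 to 10563741, 153 bp upstream of a gene that runs from 10560036 to 10563407 on the minus strand. That of mcm-4 lay 174 bp upstream, at 2321991 of chromosome I, in a peak from 2321776 to 2322205. cdk-7 (chromosome I, 2281503 to 2291205, minus strand) and mcm-4 (chromosome I, 2318291 to 2321817, minus strand) held their summits alone among protein-coding genes, as did cdc-48.1.

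The other 5 summits were shared with a gene on the opposite strand (62.5%, against 45.4% of the 914 genes), so the peak cannot be given to either gene of the pair. The cdc-6 summit, at 4270559 of chromosome I, lay 272 bp upstream of cdc-6 and 107 bp upstream of acin-1, whose 5' ends are 379 bp apart. The cdk-5 summit, at 13466429 of chromosome III, lay 87 bp upstream of cdk-5 and 149 bp upstream of an annotated 5' end of kel-3. cdk-5 and kel-3 overlap, and the summit fell in a kel-3 intron.

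The mcm-10 summit, at 11317373 of chromosome III, lay 197 bp upstream of mcm-10 and 318 bp upstream of a 5' end of teg-1, in an intron of a longer teg-1 transcript. The last pairs were spaced more widely. The pola-1 summit, at 11142270 of chromosome III, lay 178 bp upstream of pola-1 and 429 bp upstream of Y47D3A.1. The pri-2 summit, at 12532326 of chromosome I, lay 191 bp upstream of pri-2 and 416 bp upstream of W02D9.2. In both pairs the 5' ends are 607 bp apart, and the summit was nearer to the replication gene.

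**Figure D4:**
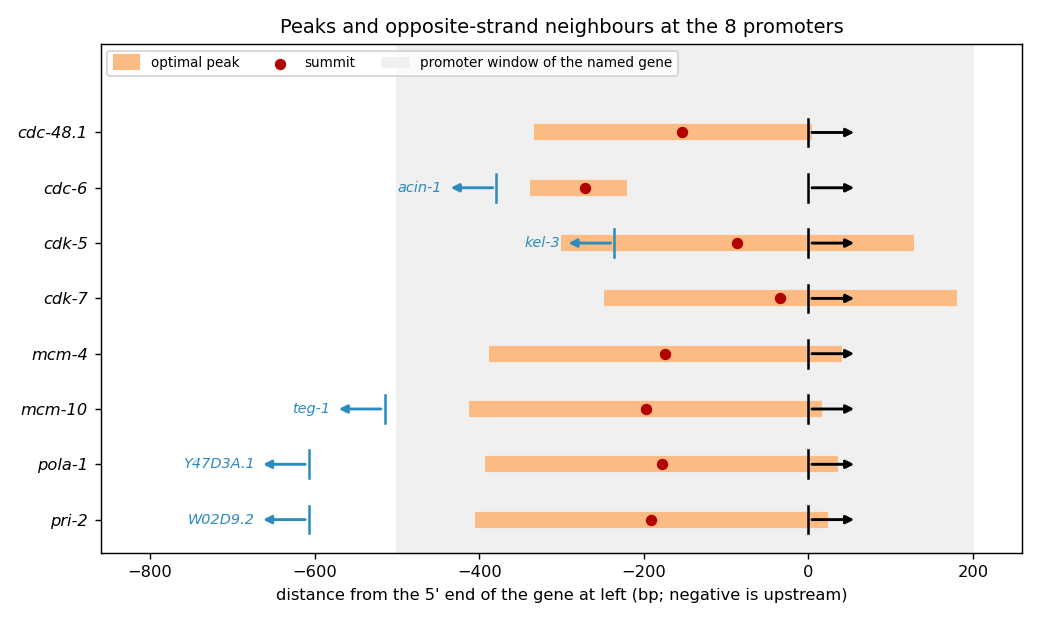
Optimal peaks (orange bars) and summits (red points) at the 8 promoters, by distance from the 5' end of the named gene (bp; negative is upstream). Black arrows start at that 5' end, blue arrows at the 5' end of the opposite-strand gene that shares the summit, and the grey area is the promoter window. All 8 summits lie upstream, and the cdc-6 peak is the narrowest at 118 bp.

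Both replicates ranked cdc-48.1 and cdc-6 highest and pri-2 lowest of the 8 genes. The ratio of the signal in replicate 1 to that in replicate 2 had a median of 1.23, from 1.02 at mcm-4 to 1.79 at pri-2, against 1.43 over 912 genes with an optimal promoter peak and a call in both, whose 5th and 95th percentiles were 0.909 and 2.51. pola-1, with 1.72, and pri-2 had the highest ratios and the lowest pooled signals of the 8. All 8 peaks overlapped a call in both replicates. Of the 35 genes with a pooled call, 20 had an overlapping call in both replicates (57.1%), 8 in replicate 1 alone, 4 in replicate 2 alone and 3 in neither. Over all 5828 genes with a pooled call, 62.5% had an overlapping call in both. Of the 17 replication genes with a pooled call, 8 had one in both (47.1%) and 6 in replicate 1 alone (35.3%, against 20.1% of all genes).

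**Figure D5:**
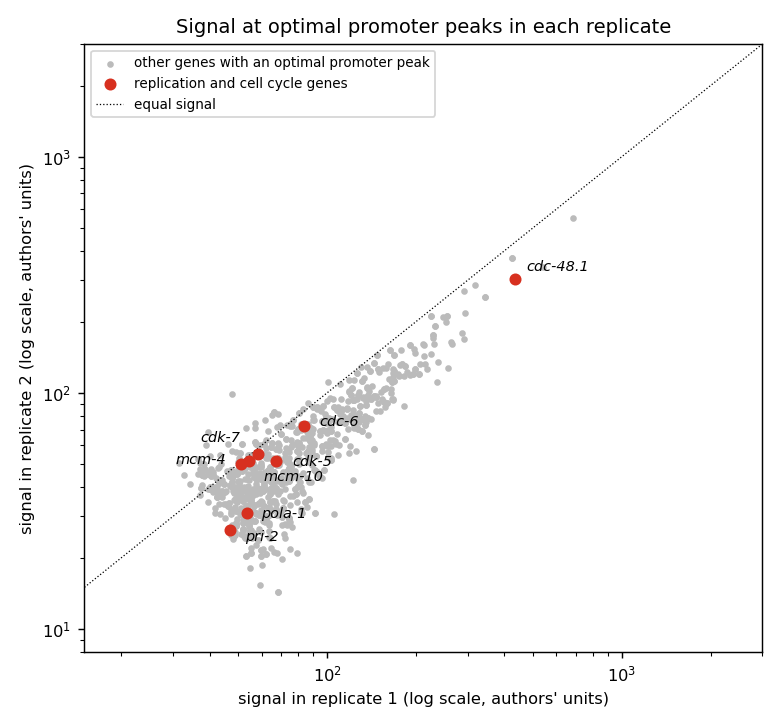
Signal of the overlapping call in replicate 1 (horizontal axis) and replicate 2 (vertical axis) at optimal promoter peaks, both on log scales in the authors' units. Red points are the 8 genes, grey points other genes with an optimal promoter peak, and the dotted line is equal signal. The 8 red points lie below the line, with ratios of 1.02 to 1.79.

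Some genes without an optimal promoter peak had one nearby. cye-1 had 2, and neither could be tied to its own 5' end. The first had a signal of 130, with 74.7 and 56.5 in replicates 1 and 2. It lay 1027 bp inside the gene, in a cye-1 intron that holds a tRNA gene, and its summit fell on that tRNA gene. The second, with 87.9 (49.9 and 37.5), lay 590 bp upstream of cye-1 and 58 bp upstream of pqn-21. cdc-7 had an optimal peak 1430 bp upstream and a signal of 106, with 60.3 and 46.8 in replicates 1 and 2, and it lay in no promoter window. The peaks nearest to pole-2 and orc-2 belonged to the promoter windows of other genes. That near pole-2, with a signal of 114, lay 1356 bp upstream of it and 156 bp upstream of snrp-3, and that near orc-2, with 89.4, lay 1164 bp upstream of it, in the windows of copz-1 and cyn-4.

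The remaining genes of the same pathways were read from 5 lists of typed symbols, of which 104 matched a nuclear protein-coding gene. Of these 104, 21 had an optimal promoter peak (20.2%, against 4.58% of all genes) and 59 any pooled call (56.7%, against 29.2%). Replication fork and elongation genes had 6 of 23, G1 and Rb-E2F control genes 5 of 19, checkpoint and dNTP supply genes 4 of 17, anaphase promoting complex and mitotic kinase genes 5 of 32, and licensing control and firing genes 1 of 13. The median signal of the 21 peaks was 151, beside 108 for the 8 peaks of the 54 genes and 116 for all 914 genes.

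Several fork genes had stronger peaks in their promoter windows than any replication gene among the 54. Of the fork genes named here, only pcn-1 held its summit alone among protein-coding genes. pcn-1, the gene of the sliding clamp PCNA, had a signal of 342 at rank 91, 219 in replicate 1 and 127 in replicate 2, with its summit 270 bp upstream. top-2, a topoisomerase II gene, had 316 at rank 106, 184 in replicate 1 and 130 in replicate 2. clsp-1, the claspin gene, had 237, ctf-4, which links the helicase to polymerase alpha, 227, and rfc-4, a clamp loader subunit gene, 189. The strongest licensing and firing gene was dnsn-1, with 213 at rank 241, 122 in replicate 1 and 93.2 in replicate 2. The same replicate signals were found at npp-3 as at top-2, and at eef-2 as at clsp-1. They were also the same at eef-1G and ctf-4, at eef-1A.1 and rfc-4, and at C24H12.4 and dnsn-1.

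Peaks in the promoter windows of Rb pathway genes were among the strongest as well, although these peaks had been seen in earlier results of the same data. lin-54, which encodes the DNA-binding protein of the DRM complex, had 427 at rank 61, 233 in replicate 1 and 192 in replicate 2, and lin-53, lin-9 and lin-35, the Rb gene, had 293, 234 and 197. Of these 10 strongest genes of the lists, all but pcn-1 and lin-9 share their summit with another protein-coding gene. Those shared peaks cannot be given to either gene. Replicate signals were the same at rpl-12 and lin-54, at nra-2 and lin-53, and at vps-51 and lin-35.

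Motifs common at other ROW-1 summits were found at 2 of the 8 summits. The 5 words of 6 bases with the largest excess at the other 1545 nuclear optimal summits over flanks 250 to 350 bp away were searched on both strands within 50 bp of the summit. They were GAGAGA with its overlapping neighbour AGAGAG, then CGTCTC, and GACGCA with its overlapping neighbour ACGCAG. Any of the 5 occurred at 2 of the 8 summits (cdk-7 and cdk-5), at 52.5% of the other summits and in 14.7% of the flanks. The words were chosen for their excess at those other summits, so 52.5% is no independent measure. With 8 summits, no lack of these words can be read from the count. GAGAGA was at cdk-7 and cdk-5, beside 28.9% of other summits and 8.16% of flanks, and GACGCA was at the same genes, beside 18.7% and 2.23%. In the cdk-5 sequence shown above, AGAGAG began 27 bases before the summit, GAGAGA 10 bases before it and GACGCA 36 bases after it. The 8 summits had a median GC content of 41.6% (25.7% at pri-2 to 51.5% at cdk-7), beside medians of 49.5% for other summits and 35.6% for their flanks.

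E2F-type sites were more frequent in the promoters of these genes than in all promoters. The letters searched were TTTCCCGC, also TTTCGCGC, then TTTGCCGC, and finally TTTGGCGC, on both strands. In the promoter sequence from 250 bp upstream to 50 bp downstream of the most upstream 5' end, 12 of the 54 genes had any of the 4 sites searched (22.2%), against 4.7% of all promoters. The 12 included 9 of the 20 replication genes (45%), namely orc-1, mcm-3, mcm-4, mcm-5, mcm-6, mcm-7, cdc-7, pole-1 and pri-2, and further cdk-2, cyd-1 and cdc-25.2. Of the 104 other genes of these pathways, 38 had a site (36.5%). Of the 5 replication genes with an optimal peak, 2 had a site in the promoter (mcm-4 and pri-2). Within 50 bp of the summit, 1 of the 8 had a site (TTTCGCGC at mcm-4), beside 3.56% of other summits and 1.68% of flanks. In the weaker mcm-7 call the same site began 7 bases after the summit, printed as GCGCGAAA on the gene's strand. The cell cycle homology region TTTGAA was within 50 bp at pri-2 and cdc-48.1, beside 12.8% of other summits and 27.2% of flanks, and the TATA motif TATAAA at mcm-4 and mcm-10, beside 3.43% and 11.5%. A match is a run of letters and not evidence that a factor binds there.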

How the data were processed

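ChIP-seq peak lists of 2 biological replicates were used. The signal of each call is the authors' deposited value on an unstated scale. Per the deposited file listing, each replicate's calls were made from its alignments and 1 further file not used here, the pooled calls from both, and the optimal list by IDR thresholding. The aligner, the caller and the IDR threshold were not given in the sources used here. Gene models came from Ensembl release 115 and sequence from RefSeq, both for WBcel235 (ce11), and were joined to the calls with Python 3.11.15, pandas 2.3.3 and numpy 2.4.6. The ce10 optimal list served only for its number of peaks and for matches by signal (within 0.1%) and start (within 1000 bp, as deposited, with no conversion).

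A gene took the strongest call whose summit fell in a promoter window of any of its transcripts. Overlap of replicate calls needed 1 bp. The members, lists and motifs were chosen with earlier results of these data known, and the 7 role groups after values were seen. Genes named were all members with an optimal peak, the strongest others, the core replication and cyclin genes, genes that share a summit, and up to 10 of the typed lists with an optimal peak. The counting was tested on simulated data.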

Additional observations from a re-analysis of the deposited data

How the results depend on the processing

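The count of 8 genes with an optimal promoter peak was 7 to 9 with other promoter windows, peak overlap, the most upstream 5' end or the nearest gene, and 7 without replicate 1 and 8 without replicate 2, from 1574 calls of the other replicate. Without replicate 1, pola-1 and pri-2 left it (ranks 1708 and 2320) and cdk-9 entered, by a call shared with hxk-2. It was 4 with the 787 strongest peaks, where mcm-4, mcm-10, pola-1 and pri-2 were lost, and 12 with 3148 pooled calls. cdc-6 was lost in the narrow window (250 bp before to 100 bp after the 5' end) and by nearest gene. The cyclin E gene cye-1 entered in the wide window (1000 bp before to 500 bp after the 5' end), by peak overlap and by nearest gene. In those settings the cell cycle kinases and cyclins were therefore not without an optimal promoter peak by count. Neither optimal peak near cye-1 could be tied to its own 5' end, as described above. In alternatives chosen after seeing the data, the count was 11 with 2157 calls, 5 with the 20 replication genes only and 5 without the other CDK, cdc and mcm genes. The share of all genes moved from 4.58% to 2.83% in the narrow window, 2.31% with the 787 strongest peaks and 7.98% with 3148 calls. By nearest gene it was 6.77%. The count of 21 among the 104 listed genes ran from 14 to 26. The count of 35 genes with any pooled call became 25 without replicate 1 and 33 without replicate 2, and 25 to 40 over the windows. The median rank of 5222 became 3437 without replicate 1 and 5452 without replicate 2, in lists of other lengths. Over all genes with a call, the median rank of 8281 became 8065 without replicate 1 and 8532 without replicate 2. The count of 6 genes among the strongest calls of both replicates became 11 with 3148 calls of each and 4 to 7 otherwise. For the counts of 35 and 6 genes no share of all genes is given in these settings. A change in the background therefore cannot be told apart from a change particular to these genes. The cause of these changes was not tested, apart from the different numbers of calls read. No paired analysis was possible because there is 1 group.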
